A study of Homo sapiens with 3 samples.

Results

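The genes described here are 41 members of the interferon response and of antigen presentation by major histocompatibility complex (MHC) class I, chosen by name, by a rule that uses no measured value, though with earlier results of these data known, out of 21726 genes in a table of RNA sequencing counts. All 41 were found once in the table. They comprise 22 interferon-induced effectors, 9 sensors and regulators, 5 class I chains, and 5 genes of peptide transport, loading and trimming. RNA was measured in 3 lines of PC3-Luc, a human prostate adenocarcinoma line that came from a metastasis in bone and grows without androgen, here transfected with pMSCV-luc, which brings in luciferase. In 2 lines, sh718 and sh720, a short hairpin lowers CTHRC1, a secreted glycoprotein; the other line carries a control hairpin and is called control below. All lines share the luciferase construct and were grown for 24 h before RNA was taken, with no interferon or other agent named in the labels. Each line is represented by 3 libraries, and whether a line is 1 clone or a pool is not given in the sources.

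Interferons are secreted proteins that bind receptors on the same or on neighbouring cells and, through JAK kinases and STAT proteins, switch on a large set of genes. Type I and type III interferons act through a complex of STAT proteins with IRF9 that binds the interferon-stimulated response element (ISRE), whereas interferon gamma acts through the gamma-activated site (GAS). Many of the induced proteins block viruses inside the cell, and others are parts of the class I pathway, in which peptides made by the proteasome are carried into the endoplasmic reticulum, loaded onto class I heavy chains paired with B2M, and shown to CD8 T cells. Tumour cells in culture with no added interferon still transcribe many of these genes at a basal level, and loss of class I presentation is a known route by which tumours, prostate cancer among them, escape T cells.

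The promoters of many members show the shared sequence by which the family is recognised. Printed here, where a window was found, are those of the members that passed the test in at least 1 comparison. Whether the changes below are linked to these sequences was not tested. RefSeq windows of 300 bases, from 250 before to 50 after the annotated start (build GRCh38.p14), were matched by symbol for 33 of the 41 members and gave 42 windows. IFIT2, OASL, NLRC5, IRF7, OAS2, USP18, HLA-E and MX2 are named only. The ISRE core was searched as GAAA, any 2 bases and GAAA again, on both strands (TTTC, any 2 bases and TTTC where it lies on the strand that is not printed), the GAS core as TTCNNNGAA, and the CCAAT box as CCAAT on both strands. Each line below holds the 160 bases just before the start, 5′ to 3′ on the strand of the gene. Capitals mark matches to the ISRE core, and a capital run longer than 10 bases holds 2 overlapping matches.
ISG20 promoter, GRCh38.p14 chr15:88638856-88639015, plus strand: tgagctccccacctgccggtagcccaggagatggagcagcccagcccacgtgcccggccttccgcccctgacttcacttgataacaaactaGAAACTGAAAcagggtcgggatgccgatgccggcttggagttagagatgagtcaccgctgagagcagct
IFITM3 promoter, GRCh38.p14 chr11:320861-321020, minus strand: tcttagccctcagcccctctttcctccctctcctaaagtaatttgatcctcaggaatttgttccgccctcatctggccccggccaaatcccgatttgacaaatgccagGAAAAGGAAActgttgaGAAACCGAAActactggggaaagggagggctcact
IFIT3 (1) promoter, GRCh38.p14 chr10:89327837-89327996, plus strand: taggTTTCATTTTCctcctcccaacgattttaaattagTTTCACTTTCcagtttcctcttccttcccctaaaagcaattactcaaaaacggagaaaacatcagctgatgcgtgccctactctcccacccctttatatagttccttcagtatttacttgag
IFIT3 (2) promoter, GRCh38.p14 chr10:89332369-89332528, plus strand: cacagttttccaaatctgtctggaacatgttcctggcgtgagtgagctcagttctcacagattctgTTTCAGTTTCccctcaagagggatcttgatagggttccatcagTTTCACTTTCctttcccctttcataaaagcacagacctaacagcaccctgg
ISG15 promoter, GRCh38.p14 chr1:1013337-1013496, plus strand: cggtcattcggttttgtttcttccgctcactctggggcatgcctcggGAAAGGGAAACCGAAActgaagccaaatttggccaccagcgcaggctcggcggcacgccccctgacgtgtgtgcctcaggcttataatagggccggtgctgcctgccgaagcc
TAP2 promoter, GRCh38.p14 chr6:32838740-32838899, minus strand: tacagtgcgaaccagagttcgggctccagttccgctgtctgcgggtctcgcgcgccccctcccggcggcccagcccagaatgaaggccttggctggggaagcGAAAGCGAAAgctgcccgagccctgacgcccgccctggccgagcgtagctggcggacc
TAPBP promoter, GRCh38.p14 chr6:33314079-33314238, minus strand: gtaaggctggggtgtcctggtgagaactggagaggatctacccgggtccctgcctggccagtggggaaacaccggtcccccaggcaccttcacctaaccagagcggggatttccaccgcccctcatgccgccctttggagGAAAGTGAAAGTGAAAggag
B2M promoter, GRCh38.p14 chr15:44711357-44711516, plus strand: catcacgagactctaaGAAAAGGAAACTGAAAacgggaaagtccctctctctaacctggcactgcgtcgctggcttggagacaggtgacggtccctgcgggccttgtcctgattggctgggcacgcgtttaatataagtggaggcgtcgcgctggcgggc

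The windows of HLA-B and HLA-C held no match to the ISRE core as spelled here. They are printed with the CCAAT box, a promoter element of class I genes, in capitals (ATTGG on the printed strand where the box lies on the other one).
HLA-B promoter, GRCh38.p14 chr6:31357180-31357339, minus strand: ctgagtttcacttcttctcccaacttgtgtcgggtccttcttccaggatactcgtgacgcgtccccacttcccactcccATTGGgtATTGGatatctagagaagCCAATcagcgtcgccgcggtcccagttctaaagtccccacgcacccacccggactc
HLA-C promoter, GRCh38.p14 chr6:31272093-31272252, minus strand: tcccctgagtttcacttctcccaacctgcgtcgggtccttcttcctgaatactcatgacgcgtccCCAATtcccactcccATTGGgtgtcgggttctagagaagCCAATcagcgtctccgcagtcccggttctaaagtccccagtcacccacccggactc

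An ISRE core lay in the windows of 25 of the 33 matched members (75.8%), against 4.38% of all 27305 symbols with such windows, and in 29 of the 42 windows, against 3.57% of all 35116. It was found for 15 of 18 interferon-induced effectors, 3 of 6 sensors and regulators, 2 of 4 class I chains and 5 of 5 genes of peptide transport, loading and trimming. The windows of IFI27 and of IFI44 overlap and show 3 sites again, so the 50 matches are 47 distinct sites, of which 43 lay wholly upstream of the start in every window that holds them. Their first bases lay between 196 bases before and 11 bases after a start. In 16 members a window held at least 2 matches, as in IFITM3, IFIT3, ISG15, TAPBP and B2M above. The GAS core was found for 10 of 33 members (30.3%), against 9.38% of all symbols, and the CCAAT box for 15 of 33 (45.5%), against 39.7%. The ISRE core was held by 7 of the 9 members called below that have a window and by 18 of the other 24. A match is a string of letters, not a measured binding site.

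**Figure D1:**
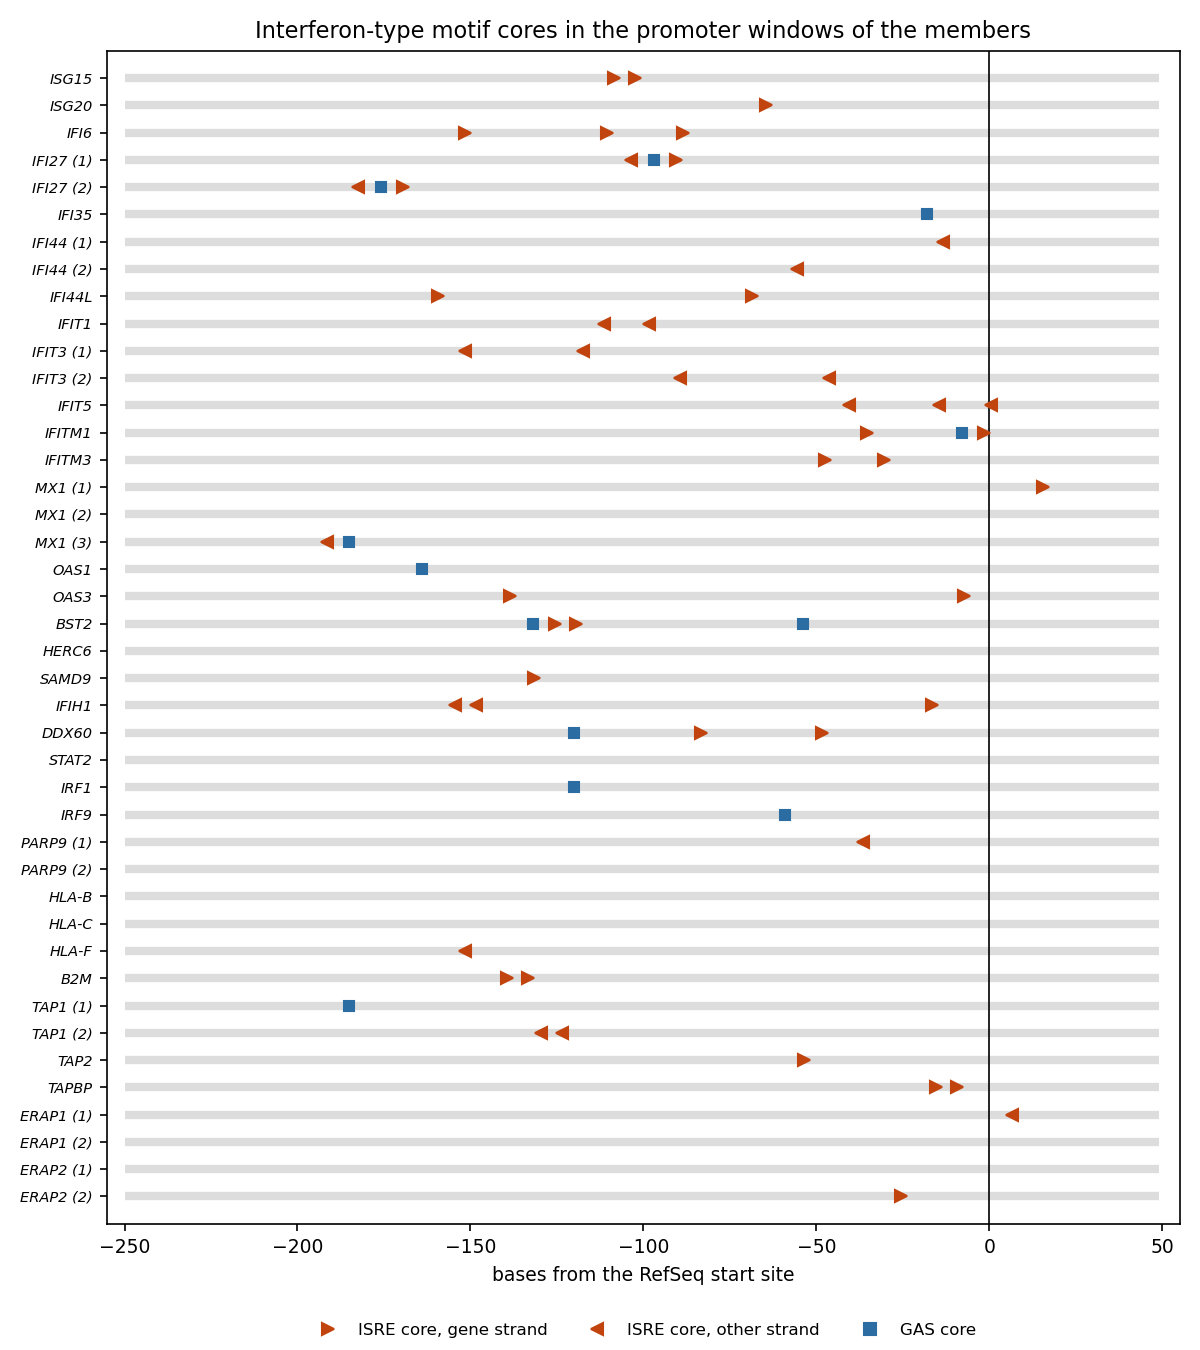
Positions of ISRE cores (triangles, pointing right on the strand of the gene and left on the other) and GAS cores (squares) in 42 RefSeq promoter windows of 33 members, in bases from the annotated start. Members with several windows have numbered rows, the overlapping windows of IFI27 and of IFI44 show 3 sites again, and 43 of the 47 distinct ISRE cores lie upstream of the start.

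Library totals ran from 883663 to 1108960 counts, and genes of the mitochondrial genome held 12.7% to 15.2% of counts in sh718, 12% to 15.1% in sh720 and 14.4% to 16.4% in control. CTHRC1, the targeted gene, was at 2.36, 2.02 and 1.06 CPM (counts scaled to the size of the library) in the sh718 libraries and 18.5, 19.8 and 9.7 CPM in the sh720 libraries, against 99.1, 132 and 117 CPM in the control libraries, so each hairpin line had the lower level its label implies. The markers of the PC3 line, epithelial genes and the mesenchymal VIM, were found for 7 of 7 genes, with a summed level of 4386 to 4484 CPM in sh718 and 4671 to 5015 CPM in sh720, against 3999 to 4104 CPM in control, though VIM held 22409 of the 38271 counts and CDH1 only 15. EPCAM, an epithelial adhesion protein, was lower in sh718, at 14.1, 13.1 and 15.9 CPM in sh718 and 46.2, 33.3 and 41.7 CPM in sh720, against 30.4, 45.1 and 37.9 CPM in control (log2 change -1.39 in sh718 against control, SE 0.26, edgeR adjusted p 2.41e-05). Of the 6 tested markers of this list, EPCAM was the 1 lower in sh718 and the keratin KRT19 the 1 higher, beside 20.4% of all genes called. KRT19 changed by 0.39 on the log2 scale (SE 0.07, edgeR adjusted p 1.64e-05). In sh720 against control 3 were higher, KRT8, KRT18 and VIM, and 0 lower, beside 6.85% of all genes called. DESeq2 did not call KRT18 there (adjusted p 0.0869). Of the luminal androgen-responsive markers 3 of 6 were found, with KLK2, KLK3 and FOLH1 not found. The leukocyte markers, 4 of 11 found, summed to 2.12 to 3.54 CPM in sh718, 1.04 to 2.91 CPM in sh720 and 0 to 2.25 CPM in control, and neither CD3E nor CD68 was found in the table used here. Fibroblast markers, 4 of 6 found, summed to 2.02 to 4.71 CPM in sh718 and 1.04 to 6.79 CPM in sh720, against 4.5 to 7.40 CPM in control. Of the endothelial markers PECAM1 was the 1 found of 3, at 50.7, 51.4 and 46.6 CPM in sh718 and 13.4, 31.2 and 15.5 CPM in sh720, against 25.9, 21.4 and 25 CPM in control. Its higher level in sh718 (log2 change 1.03, SE 0.22, edgeR adjusted p 0.000263), the higher KRT19 and the lower EPCAM moved with the sh718 results below. Their part in those results was not tested.

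The members as a group held a similar share of the RNA in all 3 lines, and a few genes held most of it. Their summed level was 1929, 1955 and 1889 CPM in the sh718 libraries and 1862, 1981 and 1800 CPM in the sh720 libraries, against 1917, 1975 and 1956 CPM in the control libraries. The ranges overlapped. Of 16499 counts over the 41 members, 40.8% fell on B2M, the invariant light chain of class I molecules, and 75.3% on B2M, ISG15, IFITM3, HLA-C and HLA-B together. A gene was tested where the mean over lines of its summed count was 20 or more, which held for 25 members and 9556 genes in all. The other 16 members shared 390 counts and are described near the end. Levels are CPM after TMM scaling and are compared between lines for 1 gene, not between genes, since they are not per length. In these bulk samples fewer cells expressing a gene and less RNA per cell cannot be told apart.

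In sh718 the interferon and class I genes moved in both directions. ISG20, HLA-B and HLA-C rose, and IRF7, IFITM3, TAP2 and B2M fell, at an edgeR adjusted p under 0.05. These 7 of 25 tested members were 28%, with 3 higher and 4 lower, beside 20.4% of all 9556 tested genes called in this comparison (9.56% higher and 10.8% lower). DESeq2 called 3 of the members, 1 higher and 2 lower, beside 10.5% of all genes. The median log2 change of the 25 was 0.22, with 17 above 0 and 8 below, beside 0.00 over all genes. The share called lay near that of all genes, and nothing is read from it about the set. In sh720 none rose, and ISG15 and TAPBP fell. These 2 of 25 members were 8%, beside 6.85% of all genes (3.43% higher and 3.42% lower), and the median change was -0.00, with 11 above 0 and 14 below. At an unadjusted p under 0.05, 5 members of the 25 passed in sh720, 3 of them higher (ISG20, HLA-B and HLA-C), and DESeq2 called 0, beside 3.21% of all genes, giving 18 of the 25 no adjusted p. No member was called in both hairpin lines, which were compared with the same 3 control libraries. Set against each other, sh718 and sh720 differed in 4 of 25 members (16%), beside 25.3% of all genes (12.3% higher and 13% lower). ISG20 and IFIT3 were higher in sh718 and IRF7 and IFITM3 were lower, 3 of the 4 also by DESeq2, beside 13.5% of all genes. The libraries of the lines did not overlap for 10 of 25 members in sh718 against control, 6 in sh720 against control and 9 in sh718 against sh720, beside 33.5%, 23.5% and 37% of all genes. The counts of calls depend on single libraries. The lower members in sh718 were 2 without sh718 library 1, control library 1 or control library 2. Those in sh720 were 0 when library 3 of sh720 or of control was left out, and 1 when library 1 or 2 of either line was. The members higher in sh718 than in sh720 were 4 without sh718 library 2.

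**Figure D2:**
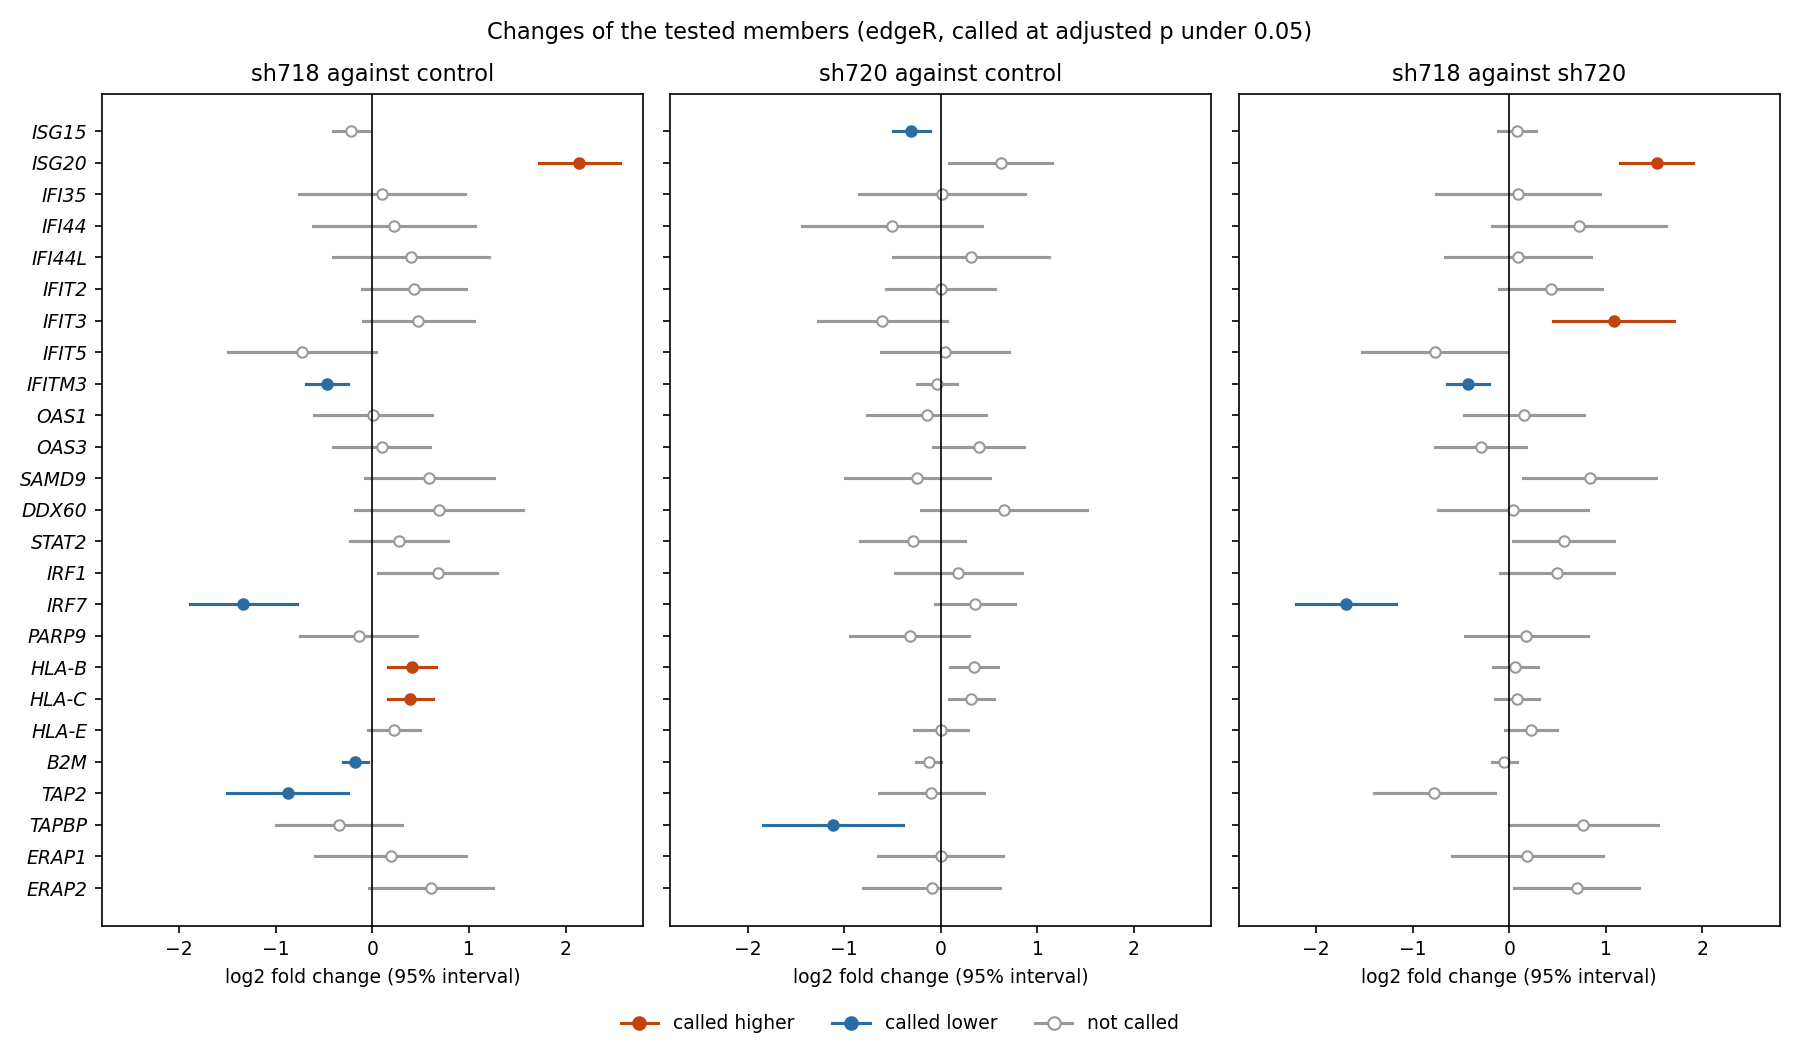
Log2 fold change of each tested member with its 95% interval, in panels for sh718 against control (left), sh720 against control (middle) and sh718 against sh720 (right). Filled points passed an edgeR adjusted p under 0.05, higher in red and lower in blue; ISG20 and IRF7 lie farthest from 0 in the left panel, at 2.14 and -1.34, and in the right one, at 1.53 and -1.69.

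Among the 12 tested interferon-induced effectors, the largest change was that of ISG20, a 3′ to 5′ exonuclease that degrades RNA (ENSG00000172183, GRCh38 chromosome 15, 88636153 to 88656483, plus strand; the promoter above has 1 ISRE core). ISG20 was at 73.1, 86.7 and 73.1 CPM in the sh718 libraries and 20.5, 37.4 and 23.3 CPM in the sh720 libraries, against 15.8, 23.7 and 13.9 CPM in the control libraries. All 3 sh718 libraries lay above every other library, and those of sh720 and control overlapped. The rise was 4.42-fold in sh718 against control (log2 change 2.14, SE 0.21, 95% interval 1.72 to 2.57, edgeR adjusted p 9.59e-13). The sh720 value against control was 0.62 on the log2 scale (SE 0.27, edgeR adjusted p 0.171), so it was not called, and sh718 exceeded sh720 by 1.53 (SE 0.19, edgeR adjusted p 1.29e-09).

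IFITM3 (ENSG00000142089, chromosome 11, 319669 to 327537, minus strand) encodes a membrane protein that keeps viruses from fusing with endosomes. It was at 124, 146 and 136 CPM in sh718 and 179.8, 192 and 176 CPM in sh720, against 179, 202 and 183 CPM in control. The 3 sh718 libraries were the lowest of the 9, and sh720 and control overlapped. The log2 change was -0.47 in sh718 against control (SE 0.11, edgeR adjusted p 0.000822), -0.43 in sh718 against sh720 (SE 0.11, edgeR adjusted p 0.00183) and -0.04 in sh720 against control (SE 0.10, edgeR adjusted p 0.892).

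IFITM2, the close paralog beside IFITM3 and no member of the set, bears on that result, because 8.05% of the 75-base runs in the GENCODE release 29 transcripts of IFITM3 also occur in IFITM2 or IFITM1, and 24.2% of those of IFITM2 occur in another gene. How reads shared by such copies were assigned is not given. IFITM2 was at 164, 163 and 172 CPM in sh718 and 94.5, 79.0 and 94.0 CPM in sh720, against 93.5, 117 and 98.1 CPM in control, and all 3 sh718 libraries were above all others (log2 change 0.69 in sh718 against control, SE 0.12, edgeR adjusted p 6.63e-06). IFITM3 thus held 43.0%, 47.2% and 44.1% of the counts of the pair in sh718 and 65.5%, 70.9% and 65.2% in sh720, against 65.7%, 63.3% and 65.1% in control. With the counts of both genes added, chosen after seeing the data, nothing was called, at 0.05 in sh718 against control (SE 0.09, edgeR adjusted p 0.726) and 0.15 in sh718 against sh720 (SE 0.09, edgeR adjusted p 0.226). A sum of a gene that fell and one that rose lies between the values of the pair however reads were assigned. The fall of IFITM3 is uncertain because of the shared runs, and the part of shared reads in it was not tested.

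**Figure D3:**
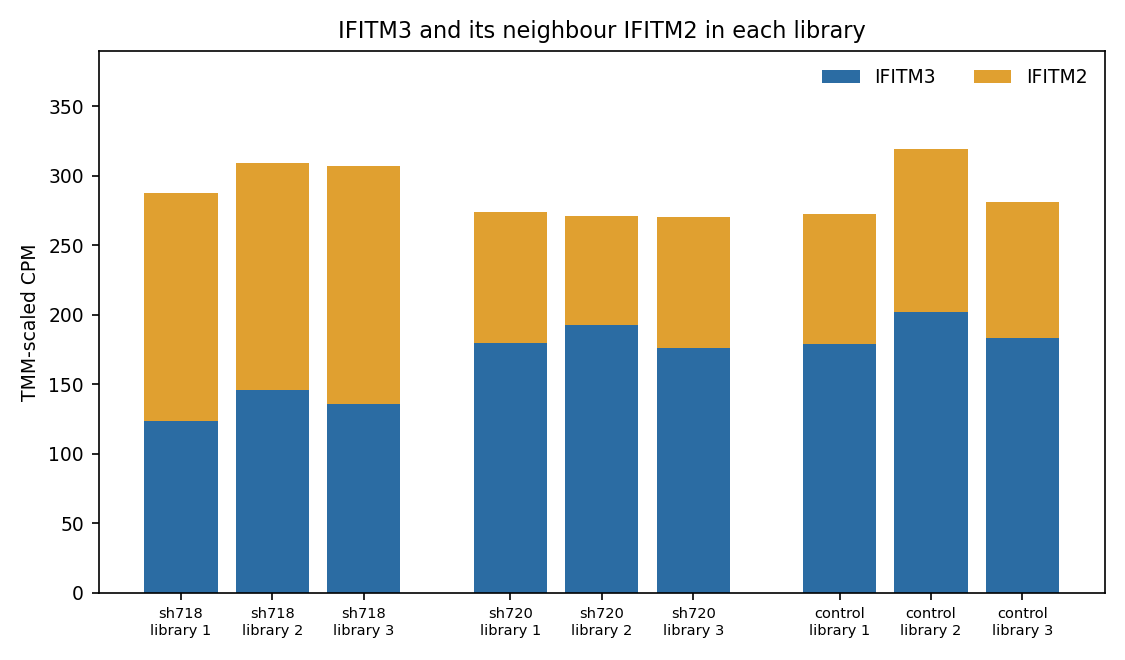
TMM-scaled CPM of IFITM3 (blue, lower part) and IFITM2 (orange, upper part) stacked for each of 9 libraries. The blue part is 43.0% to 47.2% of the bar in sh718 and 63.3% to 70.9% in sh720 and control, while the whole bars reach 288 to 309 CPM in sh718 and 271 to 274 CPM in sh720, against 273 to 319 CPM in control.

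ISG15 (ENSG00000187608, chromosome 1, 1001138 to 1014540, plus strand), the ubiquitin-like modifier that is attached to many proteins during the interferon response, was at 229.8, 219 and 230.0 CPM in sh718 and 223, 232 and 186 CPM in sh720, against 277, 255 and 259 CPM in control. Every library of both hairpin lines lay below every control library. Against control the log2 change was -0.30 in sh720 (edgeR adjusted p 0.0362, SE 0.10) and -0.22 in sh718 (edgeR adjusted p 0.0931, SE 0.10), and only the first was called. The difference of sh718 from sh720 was 0.08 (SE 0.10, edgeR adjusted p 0.589). The sh720 call was lost under 6 of 16 other settings, among them DESeq2 (adjusted p 0.115). It was lost without sh720 library 3, with a log2 change of -0.22 (edgeR adjusted p 0.260), and without control libraries 1, 2 or 3, at edgeR adjusted p 0.145, 0.0602 and 0.0744.

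IFIT3 (ENSG00000119917, chromosome 10, 89327894 to 89340971, plus strand), a partner of other IFIT proteins in binding viral RNA, had low counts and was called only between the hairpin lines. It was at 15.3, 26.2 and 26.5 CPM in sh718 and 11.3, 8.32 and 12.6 CPM in sh720, against 14.6, 21.4 and 13.9 CPM in control. The sh720 libraries were the 3 lowest of the 9, and sh718 and control overlapped. The log2 difference of sh718 from sh720 was 1.08 (SE 0.31, edgeR adjusted p 0.00649), with DESeq2 at an adjusted p of 0.0625. Against control the values were 0.48 in sh718 (edgeR adjusted p 0.253) and -0.60 in sh720 (edgeR adjusted p 0.332), neither called. The annotated span of IFIT3 overlaps that of LIPA on the other strand, as do those of IFIT1 and IFIT2. Exons were not compared, the strand setting is not given, and whether reads of LIPA were counted for IFIT3 was not tested.

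The other 8 tested effectors, IFI35, IFI44, IFI44L, IFIT2, IFIT5, OAS1, OAS3 and SAMD9, were called in no comparison. IFI35, IFI44 and IFI44L lay between 3.38 and 15.6 CPM and OAS1 between 11.1 and 22.6 CPM over all 9 libraries. OAS3, which like OAS1 makes the second messenger that activates RNase L, was at 33.0, 20.2 and 27.6 CPM in sh718 and 27.7, 39.5 and 31.0 CPM in sh720, against 23.6, 31.6 and 20.4 CPM in control. Its libraries overlapped in every pair of lines. IFIT2 was at 28.3, 28.2 and 20.1 CPM in sh718 and 16.4, 20.8 and 19.4 CPM in sh720, against 23.6, 12.4 and 20.4 CPM in control. IFIT5 was below control in all sh718 libraries, at 9.43, 9.07 and 7.42 CPM, against 10.1, 20.3 and 13.0 CPM in control, with a log2 change of -0.73 that did not pass (edgeR adjusted p 0.181). SAMD9, a restriction factor for poxviruses, was at 20, 13.1 and 18.0 CPM in sh718 and 12.3, 5.20 and 10.7 CPM in sh720, a log2 difference of 0.83 that did not pass (edgeR adjusted p 0.0673). Over the 12 tested effectors the changes ran from -0.73 to 2.14 in sh718 against control and from -0.60 to 0.62 in sh720 against control.

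Among the sensors and regulators, IRF7 changed and the other 4 tested did not pass. IRF7 (ENSG00000185507, chromosome 11, 612553 to 615999, minus strand) is the transcription factor that drives transcription of type I interferon genes in the second wave of the response. It was at 16.5, 8.06 and 14.8 CPM in the sh718 libraries and 42.1, 38.5 and 45.6 CPM in the sh720 libraries, against 24.8, 39.5 and 34.2 CPM in the control libraries. The 3 sh718 libraries were the lowest of the 9, while sh720 and control overlapped with sh720 mostly higher. IRF7 in sh718 was at 0.396 of its control level (log2 change -1.34, SE 0.28, 95% interval -1.89 to -0.79, edgeR adjusted p 0.000152). The sh720 value against control was 0.36 (SE 0.21, edgeR adjusted p 0.368), and sh718 lay below sh720 by a log2 difference of -1.69 (SE 0.26, edgeR adjusted p 3.78e-07). IRF7 has no 75-base run in common with another annotated gene.

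IRF1, a factor that drives class I and other genes downstream of interferon gamma, was at 18.9, 18.1 and 28.6 CPM in sh718 and 14.4, 20.8 and 11.6 CPM in sh720, against 20.3, 10.1 and 11.1 CPM in control. Its log2 change in sh718 was 0.68 (edgeR adjusted p 0.116) and reached 1.03 without control library 1 (edgeR adjusted p 0.0393). STAT2, the partner of IRF9 in the ISRE-binding complex, was at 22.4, 36.3 and 24.4 CPM in sh718 and 22.6, 18.7 and 15.5 CPM in sh720, against 20.3, 28.2 and 21.3 CPM in control, and its libraries overlapped in every pair of lines. DDX60, a helicase linked to RNA sensing, was at 11.8, 9.07 and 8.48 CPM in sh718 and 6.16, 14.6 and 7.76 CPM in sh720, against 5.63, 5.64 and 6.48 CPM in control. Its log2 changes of 0.69 and 0.65 did not pass (edgeR adjusted p 0.279 in sh718 and 0.444 in sh720). PARP9, which works with DTX3L in interferon signalling, had log2 changes of -0.14 in sh718 and -0.32 in sh720 (edgeR adjusted p 0.796 and 0.642).

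Of the class I chains, the heavy chains HLA-B and HLA-C rose in sh718 and the light chain B2M fell by a smaller amount. HLA-B (ENSG00000234745, chromosome 6, 31269491 to 31357188, minus strand) was at 131, 140.1 and 116 CPM in sh718 and 125, 119 and 126 CPM in sh720, against 98.0, 98.1 and 95.3 CPM in control. Every library of both hairpin lines lay above every control library. Against control the log2 change was 0.41 in sh718 (edgeR adjusted p 0.0122, SE 0.12) and 0.35 in sh720 (edgeR adjusted p 0.0837, SE 0.12), and the difference of sh718 from sh720 was 0.06 (SE 0.12, 95% interval -0.17 to 0.30, edgeR adjusted p 0.758).

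HLA-C (ENSG00000204525, chromosome 6, 31268749 to 31272130, minus strand) was at 160.3, 155 and 153 CPM in sh718 and 160.3, 146 and 138 CPM in sh720, against 117, 107 and 130.4 CPM in control. Again no hairpin library reached down to a control library. Against control it changed by 0.39 on the log2 scale in sh718 (edgeR adjusted p 0.0106, SE 0.12), with 0.31 in sh720 (edgeR adjusted p 0.0992, SE 0.12), and the difference of sh718 from sh720 was 0.08 (SE 0.11, 95% interval -0.15 to 0.30, edgeR adjusted p 0.673). The annotated spans of HLA-B and HLA-C overlap on 1 strand, and 0.296% and 1.3% of their 75-base runs are shared with another gene. The sh718 calls were lost with DESeq2 (adjusted p 0.0812 for HLA-B and 0.0655 for HLA-C). HLA-B was also lost without sh718 library 2 (edgeR adjusted p 0.0826) and without control library 3 (edgeR adjusted p 0.0542), and HLA-C without control library 2 (edgeR adjusted p 0.0689).

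B2M (ENSG00000166710, chromosome 15, 44711487 to 44718877, plus strand) was at 737, 752 and 734 CPM in sh718 and 755, 790.2 and 759 CPM in sh720, against 818, 858 and 837 CPM in control. The lines formed steps that did not overlap, with sh718 lowest and control highest. Against control the log2 change was -0.18 in sh718 (95% interval -0.31 to -0.05, edgeR adjusted p 0.0457, SE 0.07) and -0.13 in sh720 (edgeR adjusted p 0.292, SE 0.07). The sh718 call stood close to the threshold and was lost under 9 of 16 other settings, DESeq2 and the omission of any single sh718 or control library among them, with adjusted p from 0.0238 to 0.140 over all 16. HLA-E, the non-classical class I chain that is read by NKG2 receptors of natural killer cells, was at 109.6, 129 and 96.4 CPM in sh718 and 82.2, 105 and 99.9 CPM in sh720, against 94.6, 81.2 and 109 CPM in control. HLA-E libraries overlapped, and its log2 change in sh718 was 0.23 (edgeR adjusted p 0.251).

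**Figure D4:**
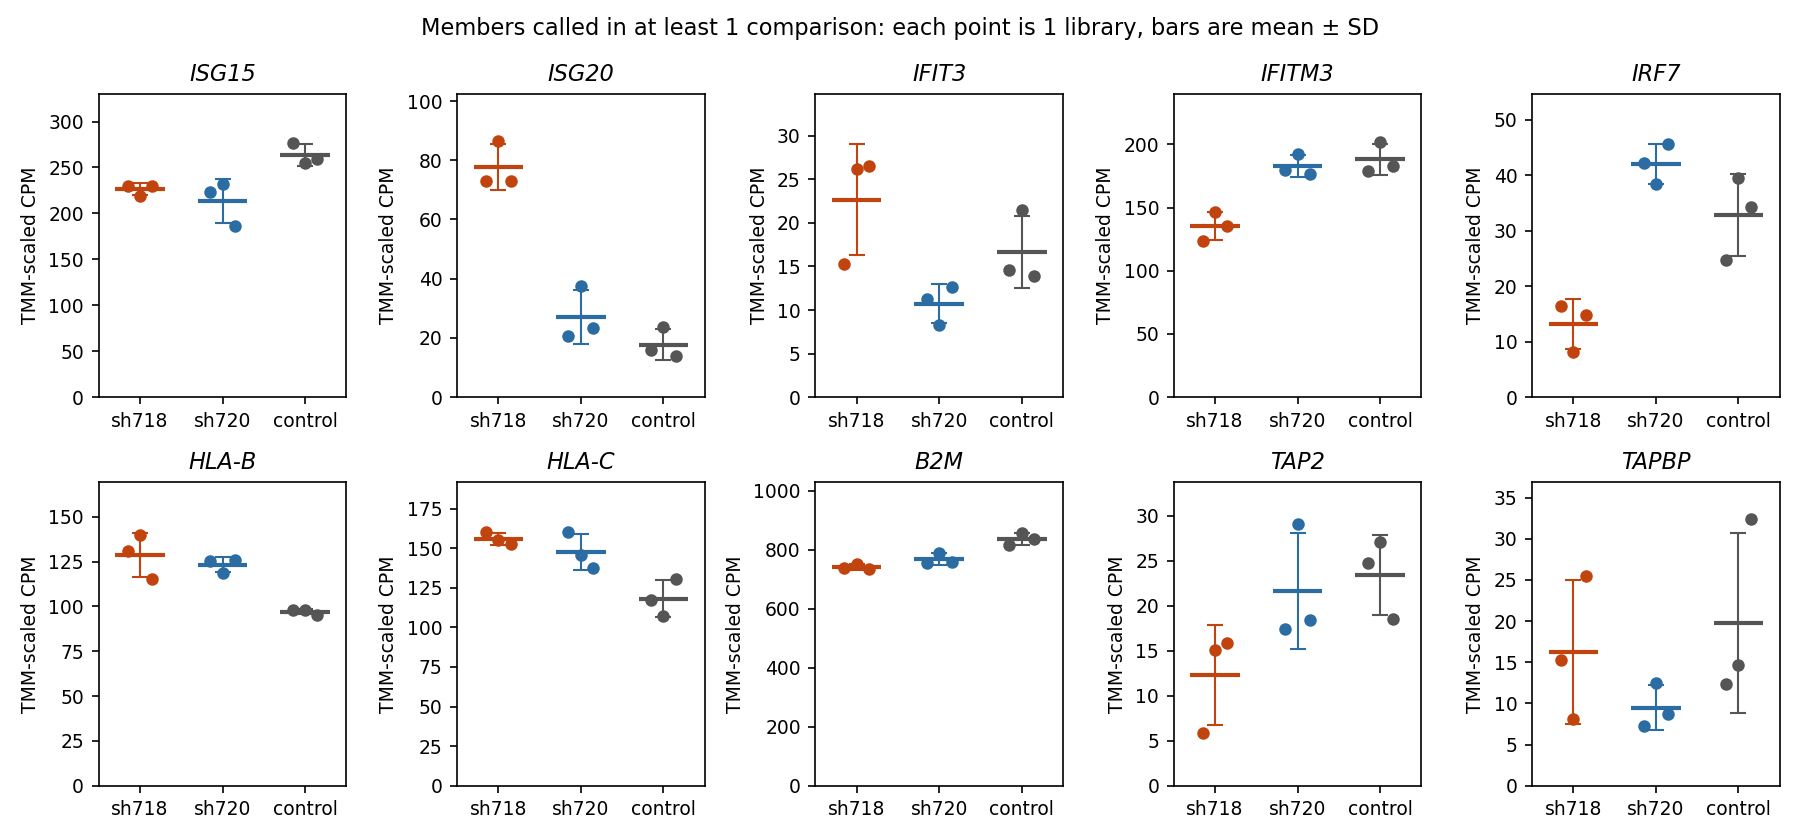
TMM-scaled CPM of the 10 members called in at least 1 comparison, with 1 point per library and the mean ± SD of 3 libraries, for sh718, sh720 and control. ISG20 is high in sh718 alone, IRF7 and IFITM3 are low in sh718 alone, HLA-B and HLA-C stand higher and B2M and ISG15 lower in all libraries of both hairpin lines than in control, and TAPBP libraries overlap.

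Of the genes that supply peptides to class I chains, TAP2 was lower in sh718 and TAPBP in sh720, both with few counts. TAP2 (ENSG00000204267, chromosome 6, 32821833 to 32838780, minus strand) is a subunit of the transporter that carries peptides into the endoplasmic reticulum. It was at 5.89, 15.1 and 15.9 CPM in sh718 and 17.5, 29.1 and 18.4 CPM in sh720, against 24.8, 27.1 and 18.5 CPM in control. All sh718 libraries lay below the libraries of both other lines, and sh718 library 1 stood lowest. The log2 change was -0.88 in sh718 against control (SE 0.31, edgeR adjusted p 0.0370) and -0.10 in sh720 against control (SE 0.27, edgeR adjusted p 0.893), and the difference of sh718 from sh720 was -0.78 (SE 0.32, edgeR adjusted p 0.0619). The sh718 call was lost with DESeq2 (adjusted p 0.160), without sh718 library 1, where the change was -0.58 (edgeR adjusted p 0.228), and without control library 1 (edgeR adjusted p 0.0949) or 2 (edgeR adjusted p 0.140). Of the 75-base runs of TAP2, 30.8% also occur in another annotated gene, AL669918.1 or TAP1; the first of these overlaps it and has 0 counts.

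TAPBP (ENSG00000231925, chromosome 6, 33299694 to 33314387, minus strand) encodes tapasin, which bridges the transporter and the empty class I molecule. It was at 7.19, 12.5 and 8.73 CPM in sh720 and 15.3, 8.06 and 25.4 CPM in sh718, against 12.4, 14.7 and 32.4 CPM in control. The libraries of the 3 lines overlapped, and control library 3 was the highest of all. The log2 change in sh720 was -1.11 (SE 0.36, edgeR adjusted p 0.0460), and without control library 3 it was -0.52 (edgeR adjusted p 0.600), so the call rests on that library. It was lost as well without sh720 library 1 (edgeR adjusted p 0.191), 2 (edgeR adjusted p 0.0503) or 3 (edgeR adjusted p 0.158).

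ERAP1 and ERAP2, the aminopeptidases that trim peptides in the endoplasmic reticulum, were not called. ERAP2 was at 24.7, 16.1 and 15.9 CPM in sh718 and 14.4, 11.4 and 8.73 CPM in sh720, against 7.88, 16.9 and 12 CPM in control. The sh718 libraries lay above those of sh720, with a log2 difference of 0.70 (edgeR adjusted p 0.109). ERAP1 was at 10.6, 12.1 and 9.54 CPM in sh718 and 13.4, 8.32 and 6.79 CPM in sh720, against 7.88, 4.51 and 14.8 CPM in control, and it overlaps CAST on the other strand.

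The 16 members under the count minimum include genes often used as readouts of interferon action. MX1, a dynamin-like antiviral GTPase, had 11 counts over the 3 libraries of sh718 and 21 in sh720, against 15 in control. IFIT1 had 21 counts in sh718 and 14 in sh720, against 20 in control. TAP1, the other transporter subunit, had 1 count in sh718 and 2 in sh720, against 5 in control, and IFITM1 had 0 in sh718 and 1 in sh720, against 2 in control. These genes did not enter the test at the chosen minimum, and ratios of their summed counts carry wide intervals. With no minimum, IFI27 in sh718 against control was the single call among the 16 (log2 change 2.73, edgeR adjusted p 0.0279). NLRC5, the transactivator of class I genes, had 2 counts in each line. OAS2 had 19 counts in sh718 and 15 in sh720, against 10 in control, and IFIH1, the RNA sensor MDA5, had 13 in sh718 and 10 in sh720, against 21 in control. BST2, IRF9, USP18, MX2 and IFI6 had at most 10 counts in a line. For IRF9, IFITM1 and USP18, 40.9%, 29.8% and 18.3% of the 75-base runs also occur in another annotated gene. The annotated span of IFITM1 also overlaps that of IFITM2 on the same strand. How shared reads were assigned is not given, and their part in these low counts was not tested.

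Of 38 ratios computed for these genes from summed counts and line totals, 6 had an exact 95% interval, for counting error only and unadjusted, that left out 1. These were 3 of 13 ratios in sh718 against control, 1 of 13 in sh720 against control and 2 of 12 in sh718 against sh720, beside 9.38%, 6.11% and 11.4% of all untested genes with summed counts in the range of the members. Libraries scattered by more than counting error, which these intervals leave out. IFI27, a mitochondrial and nuclear envelope protein strongly induced by type I interferon, had 6, 2 and 7 counts in the sh718 libraries and 2, 2 and 1 in the sh720 libraries, against 0, 2 and 0 in the control libraries. The ratio of IFI27 was 7.69 for sh718 to control (interval 1.79 to 69.3) and 3.20 for sh718 to sh720 (interval 1.10 to 11.2). OASL had 7, 10 and 10 counts in sh718 and 5, 4 and 2 in sh720, against 5, 0 and 7 in control, with a ratio of 2.31 for sh718 to control (interval 1.13 to 5.0) and 2.61 for sh718 to sh720 (interval 1.26 to 5.84). HERC6, the interferon-induced ubiquitin ligase of the HERC family, had 13 counts in sh720, against 3 in control, a ratio of 4.17 (interval 1.15 to 22.8). HLA-F had 3 counts in sh718, against 12 in control, a ratio of 0.256 (interval 0.0464 to 0.95). OASL in control library 2, at 0 counts beside 5 and 7, shows how far single libraries scatter at these counts.

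**Figure D5:**
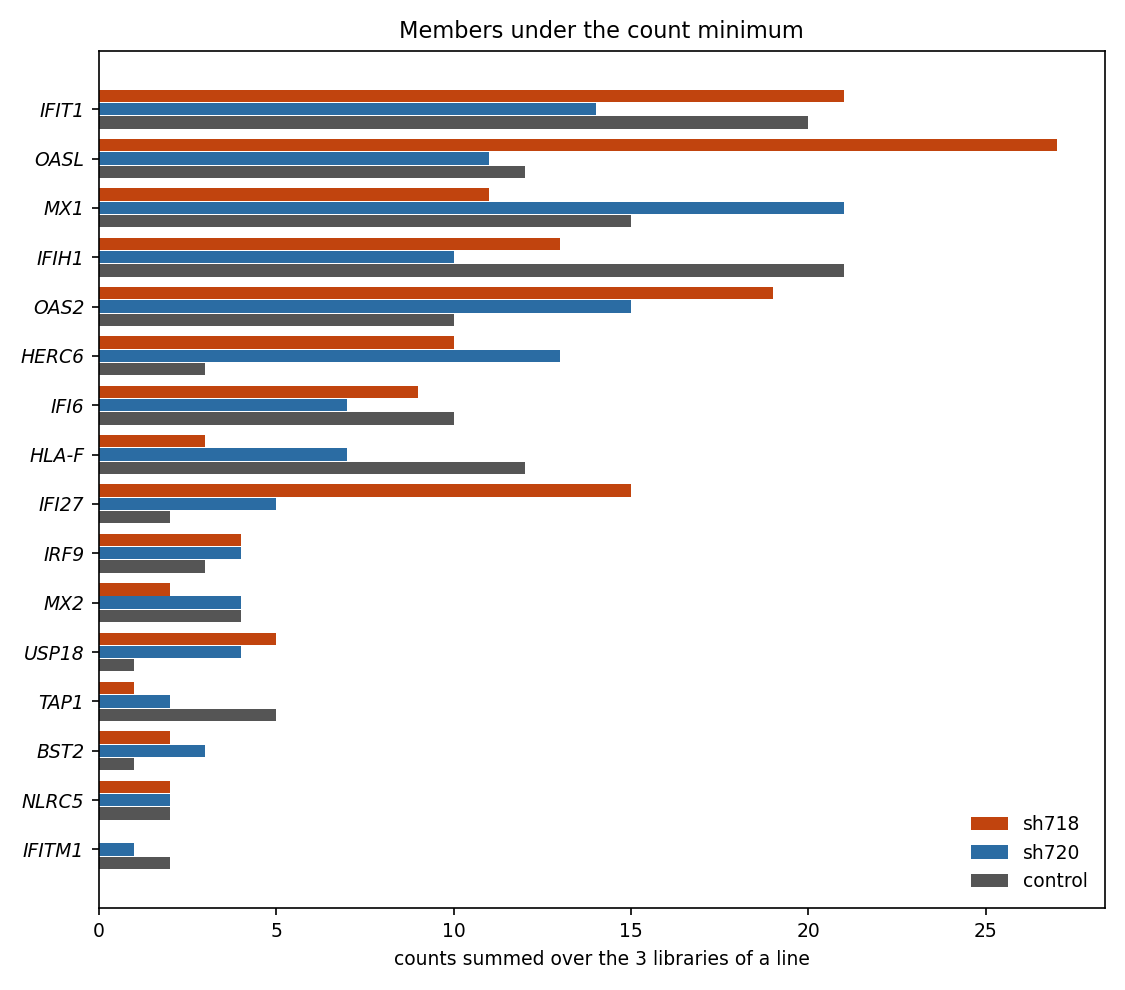
Counts summed over the 3 libraries of each line, for the 16 members that were not tested. OASL and IFI27 have their longest bars in sh718, at 27 and 15 counts, and 4 members have fewer than 10 counts in all.

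Other genes of the pathway, from lists that are not part of the 41, were counted in the same test. Of 12 tested interferon receptors and signal transducers, 1 was higher and 0 lower in sh718, beside 20.4% of all genes called, namely IFNGR2, a chain of the interferon gamma receptor, at 118 ± 11.1 CPM in sh718, against 85.6 ± 10.8 CPM in control (SD, n = 3 libraries each, log2 change 0.47, SE 0.13, edgeR adjusted p 0.00814). DESeq2 called 0 of the 12 in sh718 against control, with IFNGR2 at an adjusted p of 0.0711. In sh720 against control 0 of the 12 were called by edgeR, 0 reached an unadjusted p under 0.05, and DESeq2 called 0 and gave 5 of the 12 no adjusted p. Between sh718 and sh720, 0 were called by edgeR or DESeq2, with 2 under an unadjusted 0.05, 1 in each direction.

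Of 13 tested RNA and DNA sensors and adaptors, 3 were higher and 1 was lower in sh718, beside 20.4% of all genes called in either direction. In sh720 0 were called by edgeR, beside 6.85% of all genes, with 3 under an unadjusted 0.05, and DESeq2 called 0 and gave 8 of the 13 no adjusted p. TRIM25, the ubiquitin ligase that activates RIG-I, was at 151 ± 13.4 CPM in sh718 and 107 ± 9.59 CPM in sh720, against 89.0 ± 2.92 CPM in control (log2 change 0.77 in sh718 against control, SE 0.12, edgeR adjusted p 1.70e-06). EIF2AK2, the RNA-activated kinase PKR, changed by 0.50 in sh718 (SE 0.13, edgeR adjusted p 0.00370), and TICAM1, the adaptor of TLR3, by -0.96 (SE 0.31, edgeR adjusted p 0.0189). Between the hairpin lines 5 sensors were higher in sh718 and 0 lower, beside 25.3% of all genes called. They were led by IFI16, a nuclear DNA sensor, with a log2 difference of 1.73 (SE 0.34, edgeR adjusted p 4.85e-05). It was at 22.8 ± 3.13 CPM in sh718 and 6.72 ± 1.39 CPM in sh720, against 13.0 ± 1.41 CPM in control. STING1, the adaptor of cytosolic DNA sensing, had a log2 difference of 1.23 (SE 0.27, edgeR adjusted p 0.000329). Its levels were 34.0 ± 9.48 CPM in sh718 and 14.5 ± 4.63 CPM in sh720, against 24.2 ± 4.59 CPM in control. Mean control levels thus lay between those of the hairpin lines. Against control, IFI16 was called in sh718 alone (log2 change 0.80, edgeR adjusted p 0.0428) and STING1 in neither line. DESeq2 did not call IFI16 or TICAM1 in sh718 against control (adjusted p 0.235 and 0.116). IFI16 belongs to this list and the next and counts under both.

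Of 21 tested further interferon-stimulated genes, 4 were higher and 1 was lower in sh718, and 1 was higher and 1 lower in sh720, beside 20.4% and 6.85% of all genes called. LGALS3BP, a secreted galectin-binding protein, was at 82.9 ± 11.8 CPM in sh718 and 37.6 ± 9.26 CPM in sh720, against 35.8 ± 5.68 CPM in control (log2 change 1.21 in sh718 against control, SE 0.17, edgeR adjusted p 1.17e-07). SHISA5 was lower in both hairpin lines, with log2 changes of -0.69 in sh718 (edgeR adjusted p 5.98e-05, SE 0.14) and -0.47 in sh720 (edgeR adjusted p 0.0129, SE 0.13), against the same control libraries. DESeq2 called SHISA5 in sh718 (adjusted p 0.00200) and not in sh720 (adjusted p 0.0754). APOL6 was higher in sh720 (log2 change 0.79, SE 0.24, edgeR adjusted p 0.0251), and DESeq2 gave it no adjusted p there. Between sh718 and sh720, 5 of the 21 were higher in sh718 and 0 lower, beside 25.3% of all genes called. The median log2 change of the list was -0.01 in sh718 and -0.06 in sh720.

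Of 14 tested genes of the proteasome activator, the immunoproteasome and peptide loading, 1 was higher and 1 lower in sh718, and 0 were higher and 3 lower in sh720, beside 20.4% and 6.85% of all genes called. PDIA3, the disulfide isomerase of the loading complex, was at 409 ± 83.6 CPM in sh718 and 248 ± 21.8 CPM in sh720, against 275 ± 27.5 CPM in control (log2 change 0.57 in sh718 against control, SE 0.10, edgeR adjusted p 4.07e-06). PSMB8, an immunoproteasome subunit, fell by 0.57 on the log2 scale in sh718 (edgeR adjusted p 0.0239), with DESeq2 at an adjusted p of 0.153. CALR, the chaperone that holds the heavy chain during loading, was at 408 ± 16.3 CPM in sh718 and 264 ± 48.0 CPM in sh720, against 382 ± 53.1 CPM in control, so that it was lower in sh720 (log2 change -0.53, SE 0.09, edgeR adjusted p 2.90e-05). PSME2, a proteasome activator subunit, changed by -0.57 in sh720 (SE 0.14, edgeR adjusted p 0.00390) and SPPL3 by -0.51 (SE 0.17, edgeR adjusted p 0.0493). DESeq2 did not call SPPL3 in sh720 (adjusted p 0.195). Between the hairpin lines PDIA3, CALR and CANX were higher in sh718, by 0.73, 0.62 and 0.29 on the log2 scale (edgeR adjusted p 1.29e-08, 2.46e-07 and 0.00422), and 0 were lower, beside 25.3% of all genes called.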

How the data were processed

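The authors deposited raw counts, not normalized, for each Ensembl gene, in 9 columns, 3 for each of the 3 lines, and each column was taken as a library. Trim Galore and the build GRCh38 are listed per the submitters' processing notes; aligner, counter and strand setting are not given in the sources, so antisense, overlapping and near-identical genes are uncertain. Nothing says that libraries of a line are separate cultures, so p-values measure only the spread between libraries, which may be technical. Within every line, libraries differed by more than sampling noise (chi-square over degrees of freedom 1.31 to 2.41).

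Genes with a summed count of at least 20 on average over the lines entered 1 edgeR quasi-likelihood model (edgeR 4.0.16, R 4.3.3, TMM factors on the filtered table), with Benjamini-Hochberg adjustment over 9556 genes and a call at adjusted p under 0.05. The script was tested on simulated data. The SE is the log2 change over the square root of F. DESeq2 1.42.0, other scaling and minimum counts, a replicate block and the omission of each library were alternatives. Median changes over all genes stayed within 0.00237 of 0. Intervals on summed counts are exact at 95% and cover counting error only. Positions and 75-base runs came from GENCODE release 29, promoters from RefSeq. Same-numbered libraries did not deviate together. Every member is accounted for; full values are given for those called, and up to 3 genes per direction are named from other lists, by adjusted p. Members and lists were chosen with earlier results of these data known.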

Additional observations from a re-analysis of the deposited data

Results flagged for a closer look

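ISG20, IRF7, IFITM3 and IFIT3 differed between the hairpin lines by the direct test of sh718 against sh720 in edgeR. ISG20 was higher in sh718 by a log2 difference of 1.53 (edgeR adjusted p 1.29e-09), with 3 of 3 sh718 libraries above all sh720 libraries. IRF7 differed by -1.69 (edgeR adjusted p 3.78e-07) and IFITM3 by -0.43 (edgeR adjusted p 0.00183), each with 3 of 3 sh718 libraries below all sh720 libraries. IFIT3 differed by 1.08 (edgeR adjusted p 0.00649), with 3 of 3 sh718 libraries above all sh720 libraries. With the counts of IFITM3 and IFITM2 added, the difference was 0.15 (edgeR adjusted p 0.226), not called.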

How the results depend on the processing

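The calls of ISG20, IRF7 and IFITM3 in sh718, against control and against sh720, held under all 16 other settings each, with edgeR or DESeq2 adjusted p of at most 0.0187. Other calls were lost under 9 of 16 (B2M), 6 of 16 (ISG15), 4 of 15 (TAP2), 4 of 14 (TAPBP), 3 of 16 (HLA-B), 2 of 16 (HLA-C) and 1 of 15 (IFIT3). A setting that left a gene untested or without an adjusted p is not in its total. In sh718, IFITM3 summed with IFITM2, added after seeing the data, changed sign and was not called, at 0.054 against control and 0.15 against sh720. With DESeq2, members called in sh718 against control were 1 higher and 2 lower, of 1007 genes called in all; in sh720 against control 0 were lower, of 307 genes in all; and in sh718 against sh720 1 was higher, of 1293 in all. With no filter on low counts 1 member was lower in sh720 and IFI27 was called in sh718 (log2 change 2.73, edgeR adjusted p 0.0279). With a minimum of 60 counts TAP2, TAPBP and IFIT3 did not enter the test, so their calls could not recur. The calls left were 1 lower in sh720 and 1 higher in sh718 against sh720. Leaving out each library gave 2 to 4 members higher and 2 to 4 lower in sh718 against control, 0 higher and 0 to 2 lower in sh720 against control, and 2 to 4 higher and 2 to 3 lower in sh718 against sh720, with 1483 to 1913, 463 to 710 and 1921 to 2398 genes called in all. The library numbers did not pair the libraries (correlations of same-numbered deviations -0.0127 to 0.0219); with the number as a replicate block, members called stayed at 3 higher and 4 lower in sh718, 0 and 2 in sh720, and 2 and 2 between the hairpins. Without sh718 library 2, TAPBP (log2 difference 1.118) and SAMD9 (1.00) were called between the hairpins, and without sh718 library 3, TAP2 (-0.98). Apart from the genes left out at the minimum of 60, the cause of these shifts was not tested. Low counts limit the 16 members under the count minimum, of which IFI27 alone was called with no minimum. The part of depth and of shared runs in those counts was not tested.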

Other observations

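Genes that present antigen to CD4 T cells and the genes of the interferons themselves were at or near the limit of detection. Of 11 MHC class II genes and their controllers, 5 were found in the table, with 32 counts over 9 libraries. HLA-DMA, a peptide exchange factor of class II molecules, had 7 counts in sh718 and 4 in sh720, against 5 in control. CIITA, the master regulator of class II transcription, had 3 counts in sh718 and 4 in sh720, against 1 in control. CD74, the invariant chain, had 1 count in sh718 and 0 in sh720, against 0 in control. Of 8 interferon genes 1 was found, IFNE, an epithelial type I interferon, with 6 counts in sh718 and 1 in sh720, against 1 in control. These genes lay under the count minimum, and no direction is read from them.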
